A study of Cervus nippon with 12 samples.

Results

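The miRNAs described here are miR-140 and miR-455, which are known from cartilage. They were chosen by name, as every listed miRNA with the cattle (bta-) name miR-140 or miR-455 and any arm suffix. Of 545 listed names, 475 with a cattle name and 70 predicted ones, 3 met this rule: miR-140, miR-455-5p and miR-455-3p. miR-140 is listed without an arm suffix, so the arm of its hairpin that was counted is not known from the files. All 3 had reads in each of the 12 libraries and passed the filter on low counts in each comparison.

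A miRNA hairpin is cut into a duplex with a 5p and a 3p strand, and the strand that is loaded into Argonaute is the one that mostly accumulates. In mammals, miR-140 is encoded in an intron of WWP2 and miR-455 in an intron of COL27A1, a fibrillar collagen gene of cartilage. Both are under the control of SOX9, the transcription factor that starts and maintains the chondrocyte programme, and miR-140 is among the best known miRNAs of growth plate chondrocytes. Mice without miR-140 are small and have short bones. Since both strands of miR-455 are listed here, their balance can be read within each library.

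Small RNA was sequenced from cultured antler cells of wild-type sika deer (Cervus nippon). The cells were grown from antler tips of 6 male deer aged 3 years. The groups were reserve mesenchyme cells (RMCs, the mesenchymal stem cells of the antler) after 0, 7 or 14 days in chondrogenic medium as cell pellets (CP_0, CP_7 and CP_14), and antler chondrocytes (CC), with 3 libraries in each. Day 0 was the control of the time course, while CC was another cell type, with no induction in its labels, and not a later time of the same culture. Which animals went into which library is not given in the labels. The p-values therefore measure the spread between these libraries, which may be partly technical. In bulk samples such as these, fewer cells of a type and less RNA per cell cannot be told apart.

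The libraries held 539455 to 1032029 reads on listed miRNAs in CP_7, 2791559 to 4097304 in CP_0 and CP_14, and 9714090 to 10256572 in CC. Levels are given as reads per 1000000 reads on listed miRNAs (RPM), the deposited scale, and as RPM after TMM composition factors over the 12 libraries (TMM-normalized RPM). The scales differ here in how they treat composition. miR-21-5p took from 21.4% of the reads of a library (CP_7) to 76.9% (CC). The RPM left to all other miRNAs together falls as that share of miR-21-5p rises. Without its reads in the library size, the median log2 fold change of all tested miRNAs still ran from -0.28 to 0.49. Over the same pairs of groups it ran from -0.089 to 0.086 with TMM. The part of other abundant miRNAs was not tested. Several libraries stood apart in miRNAs known from other cell types, and fits without each of them are given beside the results they touch. The summed RPM of 3 erythroid miRNAs was 4192 in CP_0 replicate 3 against 11.8 in the lowest CP_0 library, and 1387 to 5167 in CC and CP_14. These high sums came from miR-451 and miR-486. The third, miR-144, had 0 reads in CP_0 replicate 3 and in CP_14, and at most 2 in any library. In CP_7 the arms of endothelial miR-126 summed to between 188 and 3083 RPM, with the highest value in replicate 3. Nearly all of this was miR-126-3p, since miR-126-5p had 2, 0 and 5 reads in CP_7. The arms of the listed neural miRNA, miR-9, summed there to between 123 and 1889 RPM, with the highest in replicate 1. Skeletal muscle miRNAs summed to between 4467 and 6616 RPM at day 7, between 1679 and 1747 at day 14 and between 535 and 751 in CP_0 and CC. Mesenchymal miRNAs (miR-143, miR-145, miR-199a and miR-214) summed to 41886 RPM or more in every library. The cartilage proteins that define chondrocytes are not measured by small RNA sequencing.

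miR-140 was abundant in every library. At day 0 it had 30749, 37514 and 32116 reads, at day 7 it had 7250, 9346 and 5827, and at day 14 it had 27396, 30556 and 36080. The chondrocytes, with the deepest libraries, gave 101852, 94895 and 109798 reads. Ordered by reads, it was the seventh most abundant miRNA in each CP_0 and CC library, the 7th to 9th in CP_14 and the 16th to 19th in CP_7. On the RPM scale it hardly differed between the groups. CP_0 gave 10341, 9156 and 8831 RPM, CP_7 gave 9420, 9056 and 10802, CP_14 gave 9814, 10102 and 9335, and CC gave 9930, 9769 and 11013. The groups overlapped in all 6 pairs, and the order of their means, from 9443 ± 795 (SD, n = 3) in CP_0 to 10237 ± 676 in CC, has no neighbours that differ beyond their spread.

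On the TMM scale the same reads gave groups that did not overlap. How many of the other miRNAs separated in this way was not counted. At day 0 miR-140 stood at 11140, 10815 and 10312 TMM-normalized RPM, at day 7 at 4761, 5376 and 5164, and at day 14 at 9598, 9868 and 9987. In chondrocytes it stood at 17758, 16313 and 16930. The libraries of CP_7 were lowest and those of CC highest, with CP_14 just below CP_0. As a share of the reads that were not miR-21-5p, miR-140 made up 1.27% ± 0.0938 in CP_7, 1.89% ± 0.123 in CP_14, 2.38% ± 0.196 in CP_0 and 4.13% ± 0.155 in CC (SD, n = 3). The order of groups is the same as with TMM, but this is no separate support for it. Since the RPM of miR-140 hardly differed, the order follows by arithmetic from the reads of miR-21-5p that were left out. On average miR-21-5p took 23.2% of the reads in CP_7, 48.2% in CP_14, 60.3% in CP_0 and 75.2% in CC.

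The 5p strand of miR-455 was far less abundant than miR-140. At day 0 it had 654, 800 and 673 reads, at day 7 it had 386, 530 and 259, and at day 14 it had 607, 694 and 893, against 3344, 3039 and 3342 in CC. It ranked between place 55 (a CC library) and place 76 (a CP_14 library). In RPM the libraries of CP_7 were highest, at 501.5, 513.6 and 480.1, followed by CC at 326.0, 312.8 and 335.2, while CP_14 (217.4, 229.4 and 231.1) and CP_0 (219.9, 195.3 and 185.1) overlapped. In TMM-normalized RPM the libraries of CC were highest instead, at 583.0, 522.4 and 515.3. There CP_7 had 253.5, 304.8 and 229.5, CP_0 236.9, 230.6 and 216.1, and CP_14 212.7, 224.1 and 247.2. The 3 groups of RMCs overlapped on this scale, and CC lay above all of them.

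The 3p strand of miR-455 had the fewest reads, with 62, 100 and 95 at day 0, 104, 145 and 72 at day 7, 116, 157 and 170 at day 14, and 330, 280 and 345 in CC. These small numbers limit its precision most in CP_0 and CP_7. CP_7 was highest on both scales and CP_0 lowest. In RPM the libraries of CP_7 had 135.1, 140.5 and 133.5, followed by CP_14 with 41.6, 51.9 and 44.0, CC with 32.2, 28.8 and 34.6, and CP_0 with 20.9, 24.4 and 26.1. No pair of groups overlapped in RPM, and how many of the other miRNAs separated in this way was not counted. In TMM-normalized RPM the libraries of CP_7 had 68.3, 83.4 and 63.8, followed by CC with 57.5, 48.1 and 53.2, CP_14 with 40.6, 50.7 and 47.1, and CP_0 with 22.5, 28.8 and 30.5. CC and CP_14 overlapped on this scale and changed places relative to RPM.

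**Figure D1:**
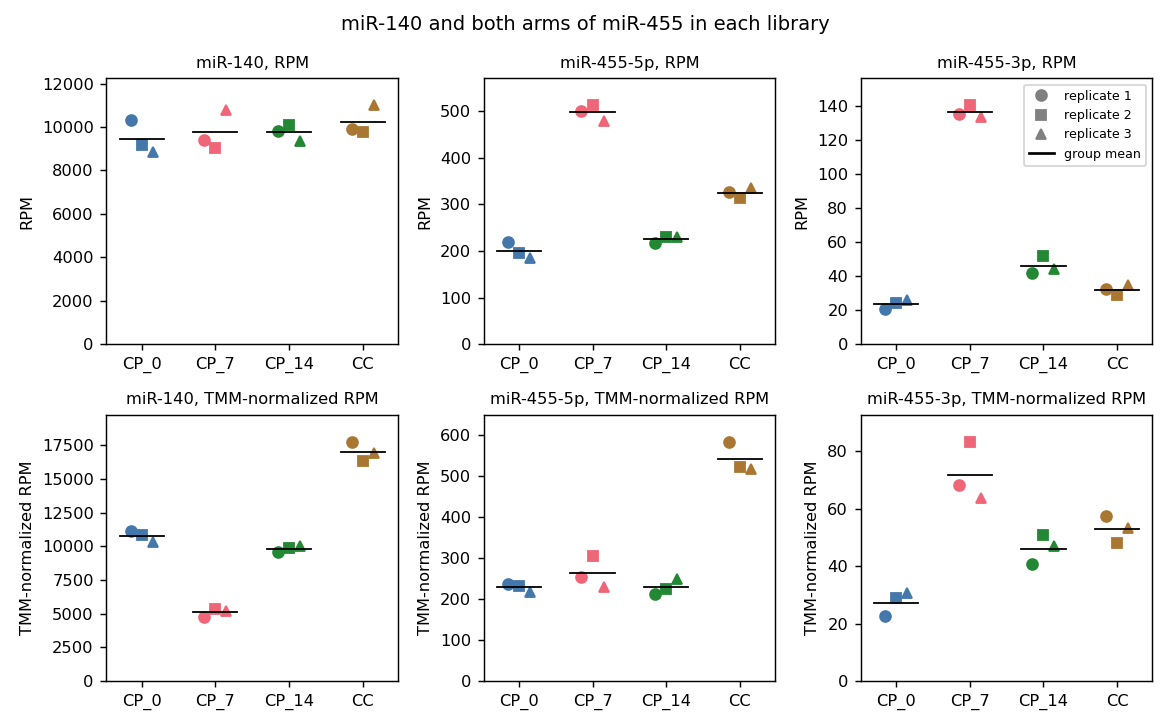
Level of miR-140, miR-455-5p and miR-455-3p in each of the 12 libraries, as RPM (upper row) and as TMM-normalized RPM (lower row), with linear axes from 0, 1 symbol a replicate and a line at the group mean. miR-140 lies between 8831 and 11013 RPM in all libraries, but between 4761 (CP_7) and 17758 (CC) on the TMM scale, and miR-455-3p is highest in CP_7 on both scales.

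For each pair of groups, limma was run on the 6 libraries of that pair, on the scale log2(TMM-normalized RPM + 1). A miRNA was called at a Benjamini-Hochberg adjusted p below 0.05 over all miRNAs tested. The direction given is the first group relative to the second. Much of the table moved in these comparisons, so the share of all tested miRNAs that was called stands beside each count.

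From day 0 to day 7 of induction, miR-140 fell and miR-455-3p rose. These were 2 of the 3 miRNAs, beside 63.8% of the 246 tested. miR-140 was 2.04-fold lower in CP_7 (log2 fold change -1.03, SE 0.0773, adjusted p = 2.65e-05 by limma), but with library size only in place of TMM it had a log2 fold change of 0.047 (adjusted p = 0.697). Its fall is thus a fall relative to the other miRNAs, of which 18.0% had a lower log2 fold change, and not in its share of all reads. miR-455-3p was 2.69-fold higher (log2 fold change 1.43, SE 0.185, adjusted p = 0.000434 by limma), and 2.48 on the log2 scale with library size only. miR-455-5p had a log2 fold change of 0.25 (SE 0.116, adjusted p = 0.102 by limma) and was not called, whereas with library size only it rose by 1.32 (adjusted p = 2.49e-05) and without CP_7 replicate 2 it had -0.053. With library size only 2 of the 3 were called, beside 69.9% of all tested. Without CP_0 replicate 3, the CP_0 library high in miR-451 and miR-486, the log2 fold changes of miR-140 and miR-455-3p were -1.08 and 1.49. Without CP_7 replicate 3 they were -1.12 and 1.42, and both miRNAs were called in both fits. Both were called without any other single library as well.

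From day 7 to day 14 both of these changes turned back. Again 2 of the 3 were called, beside 52.8% of the 246 tested. miR-140 rose 1.82-fold (log2 fold change 0.87, SE 0.0697, adjusted p = 6.18e-05 by limma), but had 0.0021 with library size only (adjusted p = 0.980). miR-455-3p fell, with a log2 fold change of -0.71 (SE 0.165, adjusted p = 0.010 by limma) and of -1.56 with library size only. Without CP_7 replicate 2 this fall had an adjusted p of 0.0641 by limma, with a log2 fold change of -0.52. Both changes were called without CP_7 replicate 1 or replicate 3. miR-455-5p had -0.28 (SE 0.123, adjusted p = 0.0970 by limma), and fell by 1.14 on the log2 scale with library size only (adjusted p = 3.85e-05). With library size only 2 of the 3 were called, beside 66.7% of all tested.

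Between the ends of the time course, day 14 against day 0, only miR-455-3p of the 3 was called with TMM, beside 46% of the 250 tested. It was 1.69-fold higher at day 14 (log2 fold change 0.76, SE 0.156, adjusted p = 0.00650 by limma), and 0.92 on the log2 scale with library size only, where again 1 of the 3 was called, beside 43.6% of all tested. Without CP_0 replicate 3 it had 0.83 and was called. miR-140 had a log2 fold change of -0.11 (SE 0.0561, adjusted p = 0.128 by limma). Without CP_14 replicate 3 it was called, with -0.16 (adjusted p = 0.0237), and it had 0.049 with library size only. For miR-455-5p the log2 fold change was 0.017 (SE 0.0882, adjusted p = 0.902 by limma), and its sign moved with the setting. The 3 strands thus had different courses over induction. Only miR-455-3p was called at both times against day 0, and in the same direction under TMM and library size only.

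With TMM, chondrocytes had more miR-140 and more miR-455-5p than RMCs at day 14. These 2 of the 3 were called, beside 74.6% of the 276 tested. miR-140 was 1.72-fold higher in CC (log2 fold change 0.78, SE 0.0533, adjusted p = 1.23e-06 by limma), with 0.069 under library size only (adjusted p = 0.430). miR-455-5p was 2.35-fold higher (log2 fold change 1.23, SE 0.0774, adjusted p = 6.97e-07 by limma) and 0.52 on the log2 scale with library size only, so that it was called higher under both. Of the other miRNAs tested, 90.2% had a lower log2 fold change than miR-455-5p. miR-455-3p had 0.19 (SE 0.128, adjusted p = 0.199 by limma), but fell with library size only (-0.51, adjusted p = 0.00845). With that scaling 2 of the 3 were called, beside 73.6% of all tested.

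Against day 0, all 3 were called higher in chondrocytes with TMM, beside 55.8% of the 260 tested. miR-140 was 1.44-fold higher (log2 fold change 0.53, SE 0.0366, adjusted p = 6.19e-05 by limma), with 0.12 under library size only (adjusted p = 0.244). miR-455-5p was 2.16-fold higher (1.11, SE 0.0573, adjusted p = 1.97e-05 by limma), which put it above 93.1% of the other miRNAs. miR-455-3p was 1.75-fold higher (0.81, SE 0.148, adjusted p = 0.00409 by limma). Both strands of miR-455 were also called higher with library size only, with 0.70 and 0.41 on the log2 scale, 2 of the 3 beside 54.6% of all tested. Without CP_0 replicate 3 all 3 were called, with log2 fold changes of 0.51, 1.08 and 0.89.

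Against day 7, all 3 were called as well, beside 67.4% of the 276 tested, and the 2 strands of miR-455 went opposite ways. miR-140 was 2.76-fold higher in CC (log2 fold change 1.46, SE 0.0566, adjusted p = 1.93e-06 by limma), with 0.071 under library size only (adjusted p = 0.495). miR-455-5p was 1.71-fold higher (0.77, SE 0.0954, adjusted p = 0.000355 by limma), but 1.53-fold lower with library size only (-0.62, adjusted p = 0.000313). miR-455-3p was 1.62-fold lower (-0.70, SE 0.131, adjusted p = 0.00276 by limma), and -2.07 with library size only. Under that scaling 2 of the 3 were called, beside 76.4% of all tested. Leaving out a CP_7 library moved this comparison more than the others, and upward for each miRNA and each library left out. The TMM factors were computed again for each such fit, so a library and the factors cannot be told apart here. With factors from all 12 libraries the log2 fold changes were 1.74 (miR-140), 1.05 (miR-455-5p) and -0.43 (miR-455-3p). Without CP_7 replicate 1, 2 or 3 the log2 fold change was 1.8, 2.02 or 1.72 for miR-140 and 1.13, 1.40 or 0.92 for miR-455-5p, each called. For miR-455-3p it was -0.35, -0.074 or -0.54, none of them called.

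**Figure D2:**
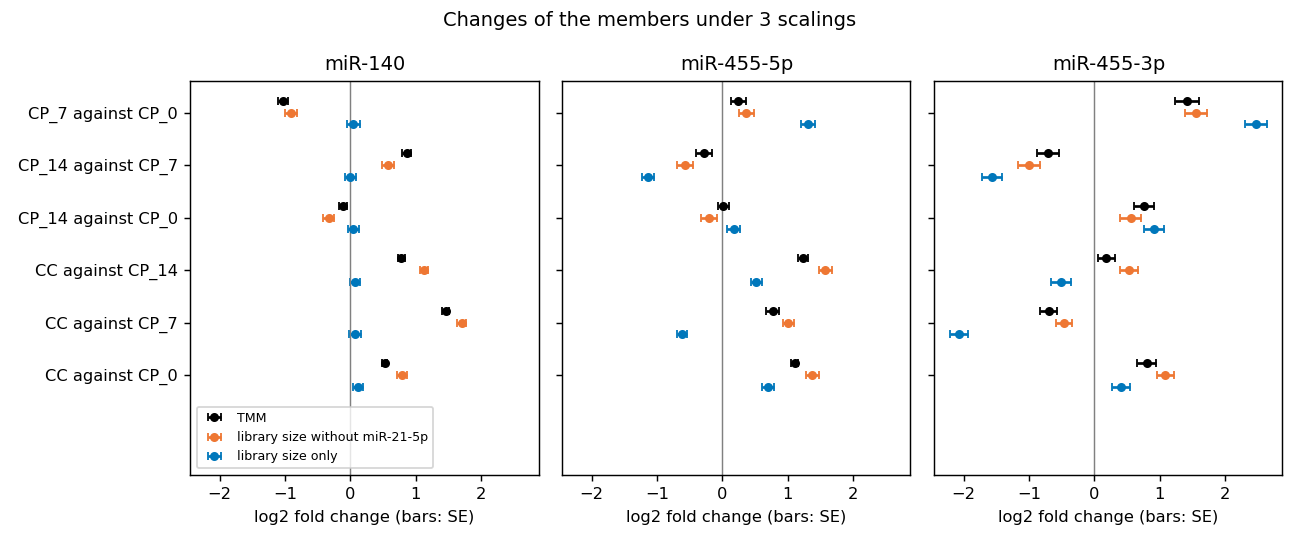
Log2 fold change of each miRNA in the 6 comparisons (points, with bars of 1 SE from limma) under TMM, library size without the reads of miR-21-5p, and library size only. The points of miR-140 with library size only all lie between 0.0021 and 0.12, while those with TMM run from -1.03 to 1.46, and for miR-455-5p in CC against CP_7 the library size only point (-0.62) lies on the other side of 0 from the TMM point (0.77).

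The scaling moved all miRNAs together. With library size only the median log2 fold change of all tested miRNAs was 1.12 in CP_7 against CP_0, -0.84 in CP_14 against CP_7, 0.16 in CP_14 against CP_0, -0.54 in CC against CP_14, -1.44 in CC against CP_7 and -0.33 in CC against CP_0, while with TMM it was between -0.089 and 0.086. Relative to that median the values moved little, which holds by construction. The scalings differ by a single factor per library, which shifts all miRNAs alike apart from the 1 RPM added before the log. The values below give places among the tested miRNAs and are no test of the scaling. In CP_7 against CP_0, miR-140 lay 1.10 below the median on the log2 scale with TMM and 1.07 below it with library size only, written as differences of -1.10 and -1.07. In CC against CP_14 it lay 0.70 and 0.61 above, and in CC against CP_7 1.55 and 1.51 above. miR-455-5p lay 1.15 and 1.06 above the median in CC against CP_14, and 0.86 and 0.83 above it in CC against CP_7, where its sign had turned with the scaling. miR-455-3p lay 1.35 above the median in CP_7 against CP_0 with either scaling. The share of other miRNAs with a lower log2 fold change than miR-455-5p in CC against CP_7 was 75.6% with TMM and 72.0% with library size only.

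Ratios of reads within a library do not depend on depth or on a composition factor. The 3p strand made up 8.66%, 11.1% and 12.4% of the miR-455 reads at day 0, 21.2%, 21.5% and 21.8% at day 7, and 16.0%, 18.4% and 16.0% at day 14. In CC it made up 8.98%, 8.44% and 9.36%. The 95% Clopper-Pearson intervals, which cover counting error only, were widest in CP_7 replicate 3 (17.4% to 26.6%) and narrowest in CC, as for replicate 3 (8.44% to 10.3%). The share was highest in each library of CP_7 and remained above that of CP_0 and CC in each library of CP_14. In these terms there were 8.38 reads of 5p for each read of 3p at day 0, 3.64 at day 7, 4.94 at day 14 and 10.2 in CC. The log2 ratio differed across the 4 groups by 2.80-fold from lowest to highest (exact permutation test over 369600 arrangements of the libraries, p = 0.000195, and 0.000195 adjusted over the 3 ratios). Between pairs of groups it did not overlap in 5 of 6. There the exact permutation p was 0.1, the smallest that 3 against 3 can give. CC and CP_0 overlapped (difference of 0.28 on the log2 scale, SE 0.175, exact permutation p = 0.3).

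The ratio of miR-140 to either strand of miR-455 was likewise lowest at day 7. miR-140 had 47.2 times the reads of miR-455-5p at day 0, 19.5 times at day 7, 43.1 times at day 14 and 31.5 times in CC, with log2 ratios of 5.56 ± 0.0136, 4.29 ± 0.182, 5.43 ± 0.0836 and 4.98 ± 0.0557 (SD, n = 3). No pair of groups overlapped, and across the 4 groups the exact permutation p was 6.49e-05, the smallest these arrangements can give (0.000195 adjusted). CC thus had less miR-140 for each read of miR-455-5p than RMCs at day 0 or day 14, although both miRNAs were higher there by TMM. Relative to miR-455-3p, miR-140 had 395 times the reads at day 0, 71.0 times at day 7, 213 times at day 14 and 321 times in CC (exact permutation p = 0.00013 across the groups, 0.000195 adjusted). In that ratio CC and CP_0 alone overlapped (difference of -0.30 on the log2 scale, SE 0.168, exact permutation p = 0.2). These are ratios of reads, and how evenly each strand was captured by the library kit was not tested. Leaving out any single library kept all 3 ratios past the threshold across the groups.

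**Figure D3:**
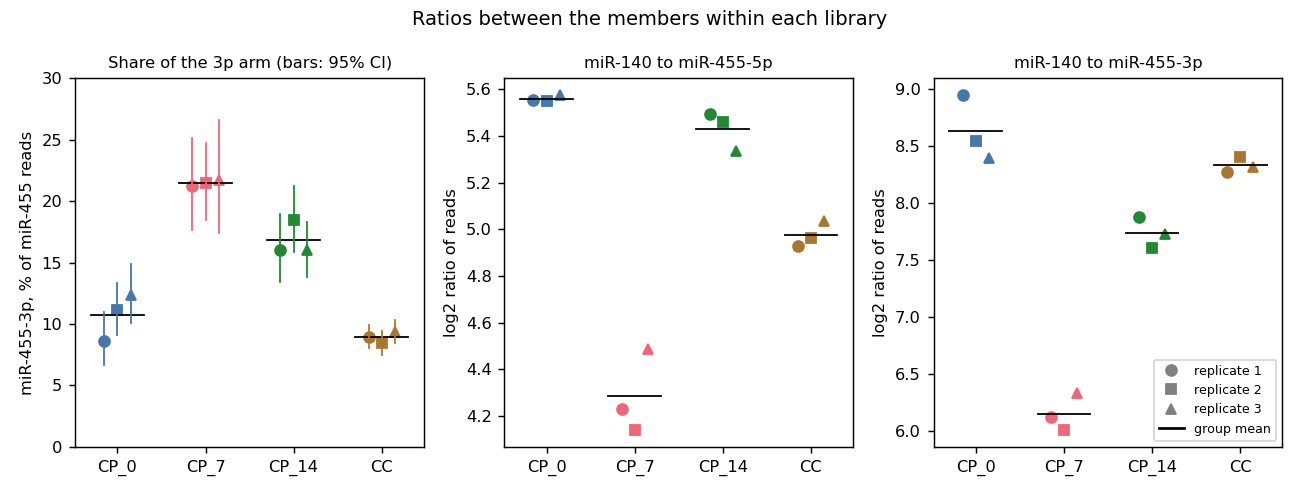
Share of the 3p strand among miR-455 reads in percent, with bars for the 95% Clopper-Pearson interval (left), and log2 ratio of reads of miR-140 to miR-455-5p (middle) and to miR-455-3p (right, axes not from 0), 1 symbol a library and a line at the group mean. The 3p share is 21.2% to 21.8% in CP_7 and 8.44% to 9.36% in CC, and both ratios of miR-140 are lowest in the 3 libraries of CP_7.

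Across all 12 libraries the RPM of miR-140 had a small spread. Its coefficient of variation was 6.98%, the lowest of the 175 miRNAs whose mean over libraries reached 50 reads, which had a median of 54.8%. The highest RPM was 1.25 times the lowest. With TMM its coefficient of variation was 41.6%, place 84 of 175 from the lowest, and the highest value was 3.73 times the lowest. The TMM factors themselves ranged over 3.74-fold, from 0.559 in a CC library to 2.09 in a CP_7 library. miR-455-5p had 39.3% in RPM and 44.2% with TMM, and miR-455-3p had 79.4% and 35.4%.

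**Figure D4:**
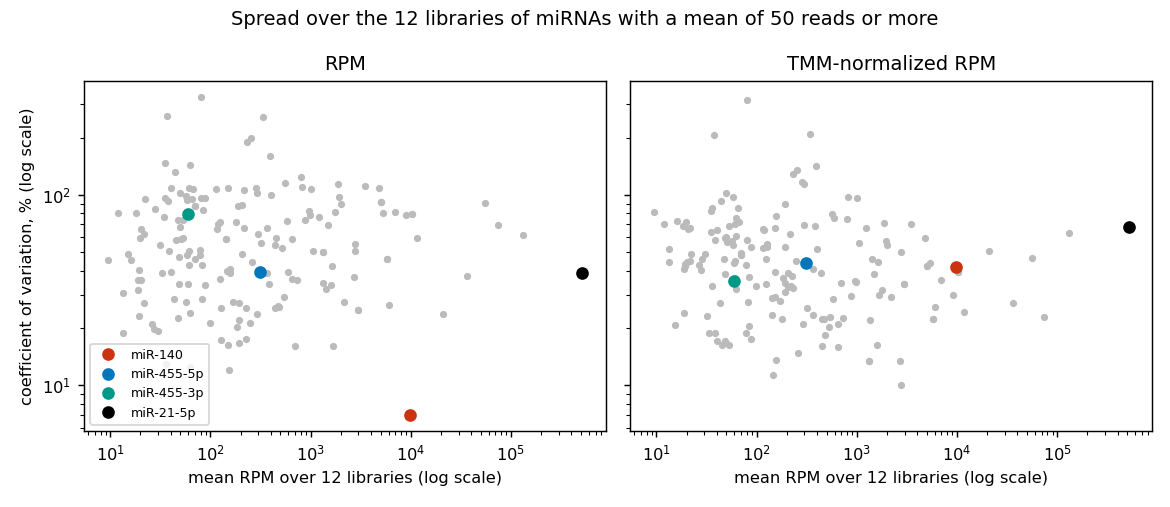
Coefficient of variation over the 12 libraries (percent, log axis) against mean RPM (log axis) for the 175 miRNAs whose mean reached 50 reads, from RPM (left) and from TMM-normalized RPM (right), with miR-140, miR-455-5p, miR-455-3p and miR-21-5p in colour. miR-140 is the lowest point in RPM at 6.98% and lies within the other miRNAs with TMM at 41.6%.

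The profiles of the 3 miRNAs were compared with those of 168 miRNAs whose mean reached 50 reads (names that share reads counted once), by Pearson r of log2(TMM-normalized RPM + 1) over the 12 libraries. These r describe libraries that share composition factors and fall into 4 groups. Closest to miR-140 were miR-452 (r = 0.99), miR-1271 (0.99), miR-21-5p (0.98), miR-18a of the miR-17 cluster (0.98) and miR-1307 (0.97). miR-452 had means of 136, 53.8, 133 and 262 TMM-normalized RPM in CP_0, CP_7, CP_14 and CC, the same order as miR-140 at a far lower level. Closest to miR-455-5p were miR-26a (0.97, with the same reads as miR-26c), miR-30d (0.97), miR-199a-5p (0.93), miR-342 (0.90) and miR-374b (0.87). miR-30d had 1185, 1395, 1183 and 2745 TMM-normalized RPM in the same order of groups. Closest to miR-455-3p were miR-148a (0.96), miR-1 (0.91), let-7d (0.90), let-7e (0.88) and miR-365-5p (0.88). miR-1 is a miRNA of striated muscle and makes up most of the skeletal muscle sum given above, which was highest in CP_7 too. The part of such cells or miRNAs in the miR-455-3p result was not tested.

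Neither strand of miR-455 was among the 5 closest to the other, nor to miR-140. The r was 0.34 between the 5p and 3p strands, 0.63 between miR-140 and miR-455-5p, and -0.41 between miR-140 and miR-455-3p. With library size only, the 2 strands of miR-455 had an r of 0.83, miR-140 had 0.22 with miR-455-5p, and the closest profile to miR-140 was miR-1307 with only 0.45. The 5 closest profiles under both scalings shared 3 for miR-140, 2 for miR-455-5p and 3 for miR-455-3p.

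Other miRNAs that work on cartilage has named were counted beside these 3. The list held 28 miRNAs, of which miR-675 and miR-337 were not among the listed names, and the others had 31 listed names, of which 27 or 28 were tested. Apart from miR-24-3p, the names given below are, in each comparison, the largest called changes among names on the list whose mean reached 50 reads in a group. From day 0 to day 7, 14 rose and 8 fell of 27 (81.5% called, beside 63.8% of all tested, of which 88 rose and 69 fell), with a median log2 fold change of 0.24 beside 0.075 over all tested. With library size only 21 rose and 3 fell, beside 152 and 20 of all 246 tested. Under this limit on reads the largest changes were in miR-181a (log2 fold change 2.30), miR-148a, which targets the DNA methyltransferase DNMT1 (1.89), miR-101, which targets the histone methyltransferase EZH2 (-2.06), and miR-21-5p (-2.45). These 4 kept their direction with library size only, at 3.37, 2.97, -0.99 and -1.38. From day 7 to day 14, 5 rose and 12 fell of 27 (63.0% called beside 52.8%, median -0.25 beside -0.0089), where 60 rose and 70 fell of all 246 tested. By library size alone 3 rose and 21 fell, beside 26 and 138 of all tested. miR-101 (2.19) and miR-21-5p (1.92) rose back there, while miR-221, which targets the cell cycle inhibitor p27 (-1.30), and miR-24 (-1.25) fell. The other listed name of miR-24, miR-24-3p, rose instead (0.94). It was far more abundant, with a mean of 6093 RPM over the 12 libraries against 40.5 RPM for the name without a suffix. From day 0 to day 14, 8 rose and 6 fell of 27 (51.9% called beside 46%, median 0.047 beside 0.010), where 62 rose and 53 fell of all 250 tested. By library size alone 11 rose and 3 fell, beside 76 and 33 of all tested. Under the same limit on reads the largest were miR-181a (2.10) and miR-199a-3p (0.91) upward, and miR-27b (-0.82) and miR-21-5p (-0.49) downward.

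In CC against CP_14, 13 of 28 on the cartilage list were higher and 10 lower (82.1% called beside 74.6%, median 0.064 beside 0.086), where 104 were higher and 102 lower of all 276 tested. The list had, with library size only, 3 higher and 20 lower, beside 40 and 163 of all tested. miR-199a-5p (1.69) and miR-21-5p (1.36) were higher in chondrocytes, and miR-127 of the imprinted DLK1-DIO3 locus (-1.63) and miR-221 (-1.23) were lower. In CC against CP_7, 9 of 28 were higher and 13 lower (78.6% called beside 67.4%, median -0.17 beside -0.089), where 80 were higher and 106 lower of all 276 tested. The list had 2 and 25 with library size only, beside 20 and 191 of all tested. miR-21-5p (3.09) and miR-101 (2.16) were higher there, and miR-127 (-2.30) and miR-221 (-2.71) lower. In CC against CP_0, 8 of 27 were higher and 8 lower (59.3% called beside 55.8%, median 0.050 beside 0.053), where 78 were higher and 67 lower of all 260 tested. The list had 5 and 13 with library size only, beside 30 and 112 of all tested. miR-148a (1.24) and miR-199a-5p (1.22) were higher there, and miR-127 (-2.18) and miR-221 (-0.76) lower. All log2 fold changes given for this list are from limma with TMM and were called. Each of those picked as the largest had the same sign with library size only. The names on the list that are linked with SOX9 or SOX5 were few, and their counts moved with the scaling. From day 0 to day 7, 3 rose and 1 fell of 6 with TMM, and 5 and 1 with library size only. From day 7 to day 14, 1 rose and 3 fell of 6, and 1 and 4 with library size only. From day 0 to day 14, 2 rose and 0 fell of 6, and 3 and 0 with library size only. In CC, 2 were higher and 3 lower of 7 against CP_14 (0 and 6 with library size only), 1 and 4 of 7 against CP_7 (1 and 6), and 1 and 1 of 6 against CP_0 (0 and 2). The shares of all tested miRNAs called in these comparisons are those given for the whole list.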

How the data were processed

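Small RNA libraries were made from 3 µg of total RNA with a NEBNext kit, and the authors deposited 1 value per miRNA and library. Although headed TPM, these are RPM (reads per 1000000 reads on listed miRNAs) that were not divided by length. Per the labels, CASAVA, bcl2fastq 1.8.4 and Bowtie were used by the submitters. The deer reads carry cattle names. What trimmed and counted them, and the build and miRNA database versions, is not given in the sources used here. No mature sequences were used.

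Reads were recovered by dividing each deposited RPM value by that of 1 read. All values were whole within 0.01 read (largest distance 0.0004). One read was worth 0.0975 to 1.85 RPM, and 0 reads allow up to 0.292 to 5.56 RPM (3 reads), which covers counting error only, since without molecular identifiers a read is not an independent molecule. Pairs of libraries within a group differed by a chi-square of at least 4.92 per degree of freedom, so none was treated as a second deposit of another. That lowest value was for CP_14 replicates 1 and 2, and every other pair had 25.6 or more. CP_14 replicate 3 differed from replicates 1 and 2 by 252 and 213. Whether they are separate biological samples rests on the labels and on the study, which states 3 biological replicates per tissue type. It does not say which animals gave which library. Each pair of groups was fitted with limma 3.58.1 (R 4.3.3) and its intensity trend (two-sided) on log2(TMM-normalized RPM + 1), over miRNAs that passed filterByExpr of edgeR 4.0.16 (minimum count 10, minimum total 15), with Benjamini-Hochberg adjustment over all of them. The fold changes are on this scale, which understates those of low miRNAs. The TMM-normalized levels come from factors over all 12 libraries, and the fits from factors over their own 6. Ratios were tested as log2 of reads with 0.5 added to both sides, by two-sided exact permutation (scipy 1.17.1). The study's rule of at least 2-fold was an alternative. edgeR's quasi-likelihood test and DESeq2 1.42.0 on the recovered reads were others, without CC replicate 3, whose value of 1 read (0.1003 RPM) lies too near a decimal step for the recovery to be checked. The remaining alternatives were upper-quartile and RLE factors, library size with and without miR-21-5p, no filter, a fit of 12 libraries, a replicate block, pseudocounts of 0.5 and 5 RPM, 5 reads added in ratios, and leaving out each library. The limma procedure was tested on simulated data.

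Replicate numbers come from the sample names, and the labels tie them to no animal or batch. Deviations of same-numbered libraries correlated from -0.293 to 0.171 over 284 miRNAs. Only CP_7 and CC had all 3 correlations over 0.1 (0.133, 0.116 and 0.171).

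The 3 miRNAs, the cartilage list and the marker lists were chosen with earlier results of these data known. Named beside the 3 were miR-21-5p, the 5 miRNAs with the highest r to each, and the 2 largest called rises and falls of the cartilage list in each comparison, where a group mean reached 50 reads. miR-24-3p was added as the other listed name of miR-24.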

Additional observations from a re-analysis of the deposited data

How the results depend on the processing

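Of 18 log2 fold changes (3 miRNAs in 6 comparisons), RLE factors, no filter, pseudocounts of 0.5 and 5 RPM, edgeR and the replicate block kept all directions and calls. With the replicate block, miR-140 in CP_7 against CP_0 had -1.03 (adjusted p = 0.00025 by limma), and in CC against CP_7, the pair whose numbers correlated, the adjusted p-values were 1.34e-05 (miR-140), 0.000589 (miR-455-5p) and 0.00877 (miR-455-3p). The scaling changed most. With library size only miR-140 had 0.047 (CP_7 against CP_0), 0.0021 (CP_14 against CP_7), 0.049 (CP_14 against CP_0), 0.069 (CC against CP_14), 0.071 (CC against CP_7) and 0.12 (CC against CP_0), none of them called. miR-455-5p had 1.32 (CP_7 against CP_0), -1.14 (CP_14 against CP_7) and -0.62 (CC against CP_7), and miR-455-3p had -0.51 (CC against CP_14), all called. Without miR-21-5p in the library size, calls were gained by miR-455-5p in CP_7 against CP_0 (0.37) and CP_14 against CP_7 (-0.57), miR-140 in CP_14 against CP_0 (-0.33) and miR-455-3p in CC against CP_14 (0.53), and miR-455-5p had -0.20 in CP_14 against CP_0. With upper-quartile factors miR-455-5p had -0.10 in CP_7 against CP_0 and -0.24 in CP_14 against CP_0, miR-140 was called in CP_14 against CP_0 (-0.37), and miR-455-3p lost its call in CC against CP_7 (-0.18). For miR-455-5p in CP_14 against CP_0, the 12-library fit gave -0.0011 and DESeq2 -0.0069. The 12-library fit moved CC against CP_7 to 1.74 for miR-140, 1.05 for miR-455-5p and -0.43 for miR-455-3p. With at least 2-fold required, miR-140 lost its call in CP_14 against CP_7 (0.87), CC against CP_14 (0.78) and CC against CP_0 (0.53), miR-455-5p in CC against CP_7 (0.77), and miR-455-3p in CP_14 against CP_7 (-0.71), CP_14 against CP_0 (0.76), CC against CP_7 (-0.70) and CC against CP_0 (0.81). Leaving out 1 library at a time, where a group then had 2 libraries, gave -1.25 to -0.99 for miR-140 in CP_7 against CP_0, 0.84 to 0.99 in CP_14 against CP_7, -0.16 to -0.081 in CP_14 against CP_0 and 1.46 to 2.02 in CC against CP_7. For miR-455-5p it gave -0.053 to 0.28 in CP_7 against CP_0, -0.35 to -0.084 in CP_14 against CP_7 and -0.076 to 0.052 in CP_14 against CP_0. The negative values in the last came without CP_0 replicate 3 (-0.033), CP_14 replicate 2 (-0.014) and CP_14 replicate 3 (-0.076). For miR-455-3p it gave -0.78 to -0.52 in CP_14 against CP_7 and -0.74 to -0.074 in CC against CP_7. The 3 ratios stayed past the threshold, with ranges of group means on the log2 scale of 1.44 to 1.52 (5p to 3p), 1.20 to 1.38 (miR-140 to 5p) and 2.32 to 2.59 (miR-140 to 3p). The causes were not tested, beyond what each scaling does by construction. The depth of CP_7 limits miR-455-3p, which had 72 to 145 reads there.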

Other observations

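After miR-140, the miRNAs with the smallest spread of RPM over the 12 libraries were miR-1307 (coefficient of variation 12%), miR-2419-5p (12.5%), miR-197 (13.0%) and miR-99b (16.0%), which were chosen after their values were seen. Their coefficients of variation with TMM were 39.2%, 32.0%, 33.2% and 29.7%. The RPM of miR-1307 ran from 120 to 190 and that of miR-99b from 1274 to 2009. miR-1307 was also among the 5 profiles closest to miR-140 under both scalings.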
